A study of Mus musculus with 10 samples.

Results

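Cells take up iron, store it, and let it out again, and the 10 genes described here encode the main proteins of that traffic: Tfrc, Steap3 and Slc11a2 for uptake, Fth1 and Ftl1 for storage, Ncoa4 for the breakdown of stored iron, Slc40a1 for export, Hmox1 for iron freed from haem, and Ireb2 and Aco1 for control. They were taken by name from the 51456 genes of the deposited table, all 10 were found, and all 10 passed the filter on low values. Libraries were made from sorted cells of mouse bone marrow. By the labels, the LSC-labelled group (leukaemia stem cells) came from mice in which MLL-AF9 drives acute myeloid leukaemia. Its gate is given as cells with neither lineage markers nor Sca-1 on them and with c-Kit, CD16/32 and CD34. The HSC-labelled group (haematopoietic stem cells) is given as sorted from wild-type C57BL/6J mice. Its gate is the lineage-negative, Sca-1-positive, c-Kit-positive fraction with CD150 and without CD48. Several sort markers went against these gates, as given below. Each group held 5 libraries. The genotype field reads wild-type for both groups, and the labels give neither the age or strain of the leukaemic mice nor how the fusion was introduced. Disease and sort gate differ together, so their effects cannot be told apart.

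Iron travels in blood bound to transferrin, and a cell takes it up when the transferrin receptor carries it into endosomes. There it is reduced and passed through a transporter into the cytosol, where ferritin, a hollow shell of heavy and light chains, holds what is not used. Free iron drives lipid peroxidation, the process that kills cells in ferroptosis, which the series title names. In bone marrow, developing red cells take up most iron, and macrophages return it from old red cells by breaking down haem and exporting the iron through ferroportin.

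Iron-regulatory proteins, the products of Aco1 and Ireb2, bind a short hairpin in certain mRNAs, the iron-responsive element, when iron is scarce. Bound in a 3′ untranslated region (UTR) it protects the mRNA from decay, and bound in a 5′ UTR it blocks translation, so it is the 3′ kind that acts on the mRNA level that RNA-seq reads. The sequences are shown because they divide the genes by this control. The UTRs of GENCODE M21 coding transcripts (GRCm38, mm10) were searched for C, a 5-base arm, the loop CAGTGN and a 5-base arm able to pair with the first, with G-T pairs allowed. Only the transcript strand was searched. An element with another loop would be missed, so the matches need not be all the elements of a gene. The letters A to D for Tfrc only give the order of its matches along the transcript and are not names of elements. In the lines below, written 5′ to 3′, the capitals mark the unpaired C and the first 5 bases of the loop, and the loop's last base follows in lower case.
Tfrc 3′ UTR, A: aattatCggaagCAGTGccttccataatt
Tfrc 3′ UTR, B: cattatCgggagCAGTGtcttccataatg
Tfrc 3′ UTR, C: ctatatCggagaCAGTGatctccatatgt
Tfrc 3′ UTR, D: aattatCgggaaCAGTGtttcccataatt
Slc11a2 3′ UTR: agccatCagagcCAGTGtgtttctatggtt
Fth1 5′ UTR: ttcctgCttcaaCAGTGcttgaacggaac
Ftl1 5′ UTR: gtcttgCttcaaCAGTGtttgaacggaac
Slc40a1 5′ UTR: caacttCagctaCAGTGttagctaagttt

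Matches A to D of Tfrc, 4 in all, lay on the plus strand at chr16:32631219-32631247, chr16:32631598-32631626, chr16:32631663-32631691 and chr16:32631710-32631738. The match of Slc11a2, at chr15:100395152-100395181 on the minus strand, was found only with 1 unpaired base allowed in the second arm. Those of Fth1 (chr19:9982732-9982760, plus), Ftl1 (chr7:45459779-45459807, minus) and Slc40a1 (chr1:45925465-45925493, minus) lay in 5′ UTRs. The matches of Tfrc, Slc11a2 and Ftl1 were each in 1 of 2 complete coding transcripts, those of Fth1 in 3 of 3 and that of Slc40a1 in 1 of 1. A fully paired match was present in the 5′ UTR of 0.13% of 20847 genes and in the 3′ UTR of 0.607% of 20928, and with 1 unpaired base allowed in the 3′ UTR of 1.7%. In the LSC-labelled group, 28 of the 80 tested genes with a fully paired 3′ match were higher and 8 lower. Of the 21 with such a 5′ match, 8 were higher and 4 lower. The share called over all genes, given below, was 41.0%. Levels are per gene and do not separate transcripts with and without the element. A match is a run of letters, and binding was not measured.

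Levels are in FPKM, which divides fragments by gene length and by library size and so lets different genes be compared. A library's FPKM values summed to 472651 to 499850. Low values lay on steps that placed the depth near 26400000 to 55160000 counted units, and whether a unit is a read or a fragment is not given in the sources used here. In LSC-labelled replicates 2 and 3 odd steps made up 55.1% and 50.4% of the whole ones, against 14.1% to 31.3% in the other 8 libraries. The steps also fitted this pair less well, with 48.5% and 50.8% of low values whole, against 66.9% to 76.9% in the other 8. Their depth and odd share are therefore less sure. The calls of the 10 genes and of the other iron genes were also made without that pair. Several sort markers, Ly6a, Slamf1, Fcgr3 and Fcgr2b, went against the labels. Ly6a, the Sca-1 gene, stood at 74.2 ± 24.8 FPKM (SD, n = 5) in LSC-labelled and 0.920 ± 0.917 in HSC-labelled libraries, and Slamf1, the CD150 gene, at 2.85 ± 0.319 in LSC-labelled and 0.494 ± 0.270 in HSC-labelled ones. Fcgr3 (197 ± 20.7 in LSC-labelled, 371 ± 117 in HSC-labelled) and Fcgr2b (26.6 ± 4.13 in LSC-labelled, 42.2 ± 5.17 in HSC-labelled), the genes of CD16 and CD32, were lower in the LSC-labelled libraries. Kit (61.6 ± 2.99 in LSC-labelled, 21.5 ± 8.36 in HSC-labelled) and Cd34 (91.3 ± 3.60 in LSC-labelled, 27.7 ± 13.3 in HSC-labelled) were higher there. Cd48 (153 ± 11.8 in LSC-labelled, 130 ± 23.0 in HSC-labelled) was not called, though the HSC-labelled gate is given as without CD48. Every direction is therefore given between libraries as labelled, and whether the labels fit the cells was not tested. Whether each library is another mouse is not stated in the labels, and p-values speak only to the scatter among the libraries at hand, which may be technical.

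In the LSC-labelled group 3 of the 10 genes were higher, 3 were lower, and 4 did not pass the test (limma on log2(FPKM + 1), adjusted p under 0.05 over 13431 genes). Over all genes tested 41.0% were called, 27.2% higher and 13.8% lower. The 3 higher genes were the 3 that bring transferrin iron into the cytosol, and the 3 lower ones were Ftl1, Ncoa4 and Hmox1. For these 6 the values of the groups did not overlap, as held for 29.8% of all genes tested, 20.0% higher and 9.80% lower. The median log2 fold change of the 10 was 0.16, beside 0.11 over all genes tested. Under quantile normalization the median of all genes moved to -0.02 and higher genes made up 49.6% of calls, against 66.3% on the deposited values, while the 6 calls and their directions were the same.

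**Figure D1:**
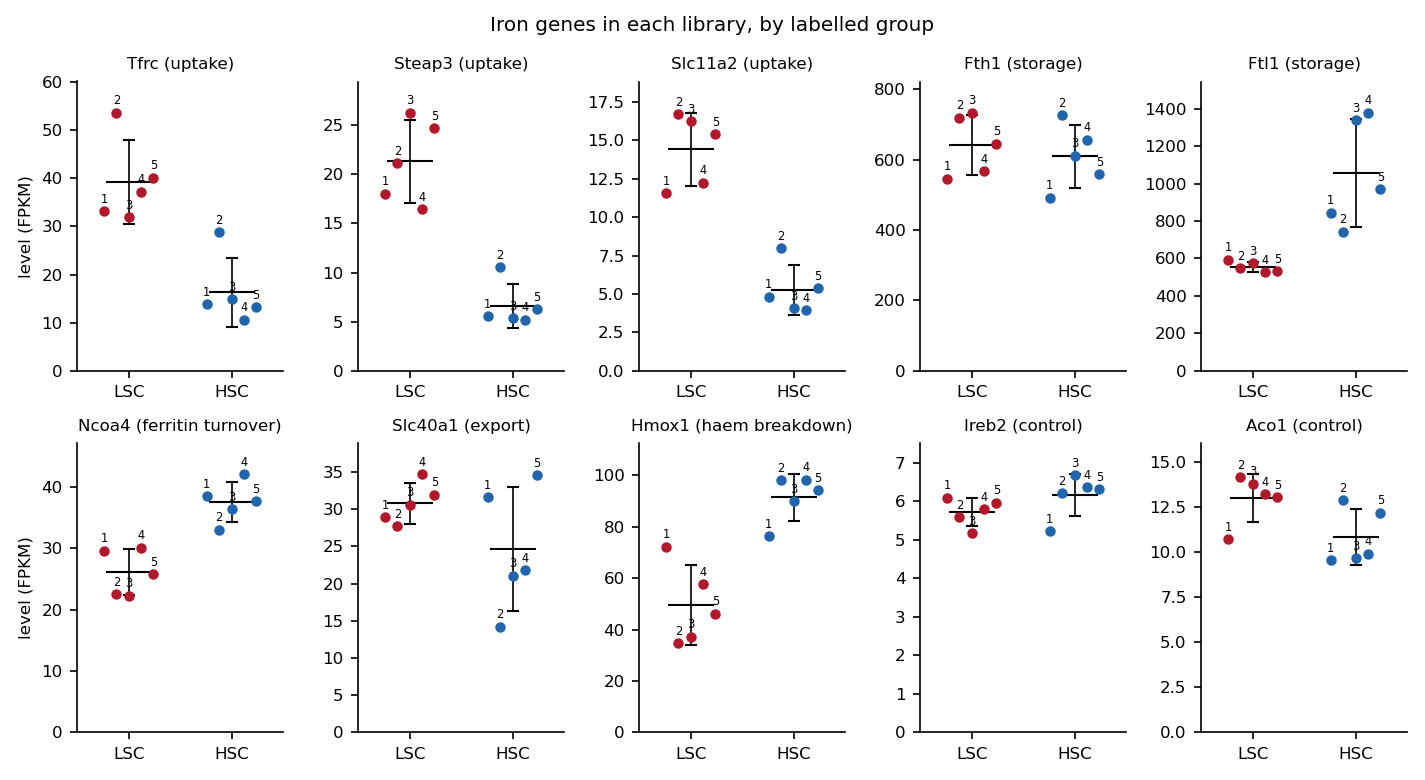
Level in FPKM (linear axis from 0) of each of the 10 iron genes in the 5 LSC-labelled (red, left) and 5 HSC-labelled (blue, right) libraries. Numbers are replicate numbers, and the black marks are the mean and SD of each group. Tfrc, Steap3 and Slc11a2 lie higher in every LSC-labelled library, Ftl1, Ncoa4 and Hmox1 lower, and HSC-labelled replicate 2 lies highest of its group for the 3 uptake genes.

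Tfrc encodes the transferrin receptor and is at chr16:32608920-32632794, plus strand (ENSMUSG00000022797). It stood at 33.1, 53.6, 31.9, 37.2 and 40.1 FPKM in LSC-labelled replicates 1 to 5, and at 13.8, 28.8, 14.9, 10.6 and 13.3 FPKM in HSC-labelled replicates 1 to 5. The groups did not overlap, and HSC-labelled replicate 2, the highest of its group, came near the lowest LSC-labelled library. In the LSC-labelled group the mean level was 2.41 times as high, and the log2 fold change was 1.27 (SE 0.231, adjusted p = 0.0012). Without HSC-labelled replicate 2 it was 1.49.

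Steap3, the reductase that turns ferric into ferrous iron inside the endosome, is at chr1:120190757-120272705, minus strand (ENSMUSG00000026389). Its levels were 18.02, 21.1, 26.3, 16.5 and 24.6 FPKM in LSC-labelled replicates 1 to 5, and 5.57, 10.6, 5.37, 5.198 and 6.31 FPKM in HSC-labelled replicates 1 to 5. Every LSC-labelled value was above every HSC-labelled one, and the highest HSC-labelled value was again that of replicate 2. The log2 fold change of 1.57 (SE 0.186 and adjusted p = 7.038e-05) was the largest among the 10 genes.

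Slc11a2, also called DMT1, carries the ferrous iron out of the endosome and is at chr15:100387898-100425072, minus strand (ENSMUSG00000023030). It stood at 11.5, 16.7, 16.2, 12.2 and 15.4 FPKM in the LSC-labelled libraries, replicates 1 to 5, and at 4.82, 7.96, 4.08, 3.96 and 5.37 FPKM in HSC-labelled replicates 1 to 5. The groups were apart, with replicate 2 the highest of the HSC-labelled libraries. It differed by a log2 fold change of 1.33 (SE 0.170, adjusted p = 0.0001222). Tfrc and Slc11a2 hold the 3′ matches shown above, and no match was found in Steap3. Differences in fold change among the 3 were not tested.

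Most erythroid markers were higher in the same libraries. Among 15 tested, 10 passed as higher, 0 passed as lower and 5 did not pass, and their summed level was 1553 to 3163 FPKM in LSC-labelled and 135 to 1754 FPKM in HSC-labelled libraries. HSC-labelled replicate 2 held the 1754, of which Car1 made 1046 and Car2 326, and the other 4 of its group held 135 to 457. It was the highest of its group for 11 of the 15 markers, all but the globin genes Hba-a1, Hba-a2, Hbb-bs and Hbb-bt, which were highest in HSC-labelled replicate 3. Without LSC-labelled replicates 2 and 3, 6 of 12 tested erythroid markers were higher and 0 lower. Slc4a1, among the 10 higher with all libraries, met the filter only through LSC-labelled ones (0.155 to 0.552 FPKM in HSC-labelled libraries). Summed markers of some other lineages separated the groups without overlap. Those of megakaryocytes and platelets summed to 801 to 1294 FPKM in LSC-labelled and 19.04 to 272 FPKM in HSC-labelled libraries. Those of basophils and mast cells summed to 789 to 1770 FPKM in LSC-labelled and 40.98 to 133 FPKM in HSC-labelled libraries. The summed markers of neutrophils, and those of macrophages and monocytes, overlapped between the groups. Gata1, a master factor of red cell and platelet development, stood at 65.2, 103, 108, 70.2 and 94.4 FPKM in LSC-labelled replicates 1 to 5 and at 2.93, 28.9, 1.70, 2.32 and 1.55 FPKM in HSC-labelled replicates 1 to 5. Klf1, which drives red cell genes, reached 60.0 to 214 FPKM in LSC-labelled libraries, 54.3 in HSC-labelled replicate 2 and 1.498 to 2.80 in the other HSC-labelled ones. No erythroid marker was listed at 0 in any library, and the globin genes were among those not called. The part of any of these cells in the levels of Tfrc, Steap3 and Slc11a2 was not tested. In bulk samples more cells of a type and more RNA per cell cannot be told apart.

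The order of libraries inside the LSC-labelled group was alike for several of these genes. Replicates 2 and 3, the pair with more odd steps, were the highest in summed erythroid markers, Slc11a2 and Fth1. The same pair was the lowest in Ncoa4, Hmox1 and summed macrophage and monocyte markers. What sets this order was not tested. Replicates 1 and 4 had the lowest summed erythroid markers (1553 and 1832 FPKM, against 2539 to 3163 in the other 3), and they also had the lowest Slc11a2, Steap3 and Fth1 and the highest Ncoa4 and Hmox1. They also had the highest summed macrophage and monocyte markers. Tfrc did not follow, being lowest in replicate 3, and Ftl1 was highest in replicate 1 and lowest in replicate 4. Car1 and Car2 weighed heavily in the erythroid sum, at 420 and 577 FPKM of the 1553 in replicate 1. Not all erythroid markers followed the sum: Hba-a1, Hbb-bs, Slc4a1 and Alas2 were highest of the LSC-labelled group in replicate 1. Among the HSC-labelled libraries, replicate 2 was the nearest to the LSC-labelled levels for 5 of the 6 called genes, all but Hmox1. With replicate 2 left out, the 6 calls held and Aco1 was added, for 4 higher and 3 lower. Without LSC-labelled replicates 2 and 3, the counts were again 3 higher and 3 lower.

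**Figure D2:**
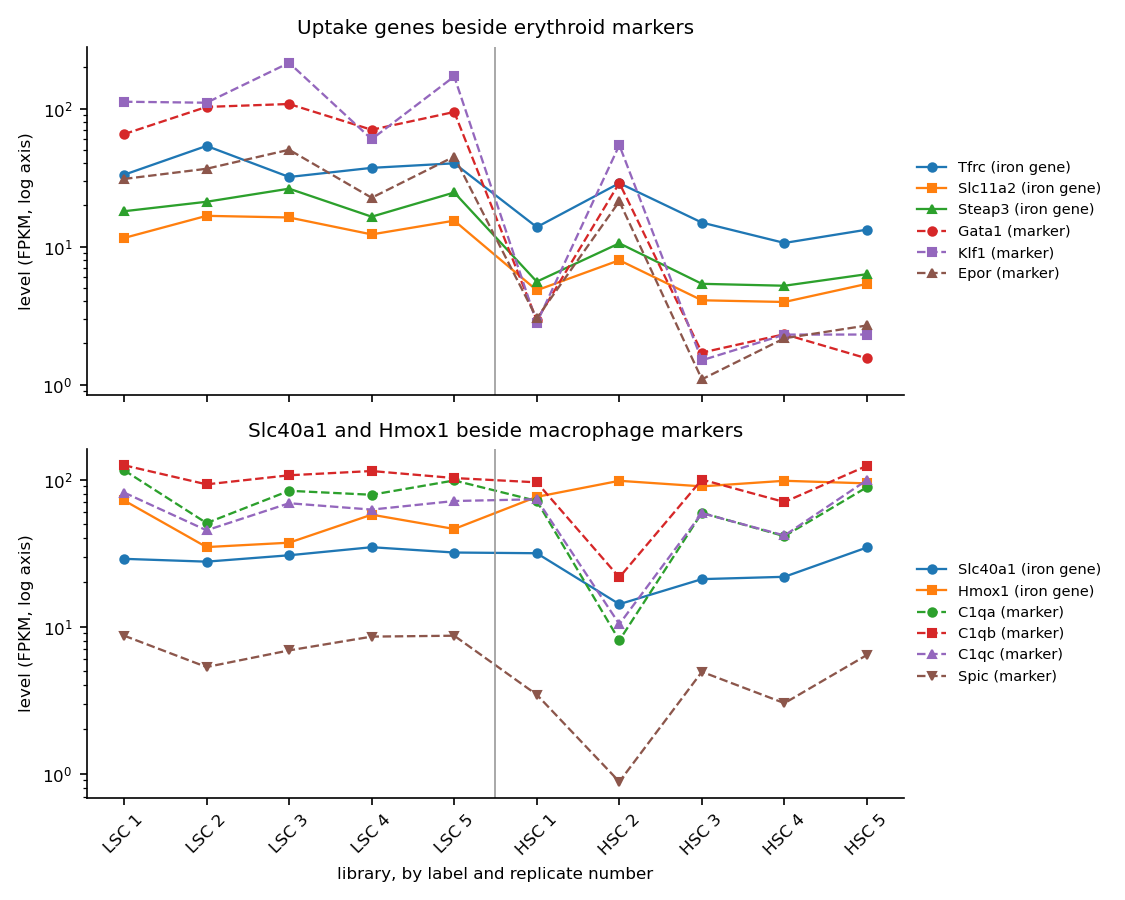
Level in FPKM on a log axis in each library, LSC-labelled left of the grey line and HSC-labelled right of it. The upper panel shows Tfrc, Slc11a2 and Steap3 (solid) beside the erythroid markers Gata1, Klf1 and Epor (dashed), all highest of the HSC-labelled group in replicate 2, unlike the globin genes, which are not drawn. The lower panel shows Slc40a1 and Hmox1 (solid) beside the macrophage markers C1qa, C1qb, C1qc and Spic (dashed). Slc40a1 and these 4 markers are lowest in HSC-labelled replicate 2, and Hmox1 is not. Csf1r, Cd14 and Marco, which are not drawn, are not lowest there either. The markers called lower in the LSC-labelled group (Adgre1, Cd68, Ccr2 and Cd14) are not drawn.

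Ferritin was the most abundant product of the 10 genes in both groups of libraries. Its light chain was lower in the LSC-labelled libraries and its heavy chain was not called, and the difference between those changes was not tested. Fth1 encodes the heavy chain, which oxidises iron for storage, and is at chr19:9980598-9985098, plus strand (ENSMUSG00000024661). It stood at 546, 719, 734, 568 and 645 FPKM in LSC-labelled replicates 1 to 5, and at 492, 726, 611, 657 and 559 FPKM in HSC-labelled replicates 1 to 5. The groups overlapped almost wholly. Its log2 fold change of 0.08 was not called (95% interval -0.20 to 0.36, adjusted p = 0.653). It was 0.0054 to 0.15 with single libraries left out and -0.05 without LSC-labelled replicates 2 and 3.

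Ftl1 encodes the light chain, which helps the iron core to form, and is at chr7:45457944-45459884, minus strand (ENSMUSG00000050708). Its levels were 593, 548, 575, 528 and 531 FPKM in LSC-labelled replicates 1 to 5, and 845, 743, 1339, 1379 and 970.5 FPKM in HSC-labelled replicates 1 to 5. The LSC-labelled values lay close together and below all HSC-labelled ones, which were widely spread with replicates 3 and 4 at the top. Its log2 fold change was -0.88 (SE 0.166, adjusted p = 0.001521), and -0.61 without HSC-labelled replicates 3 and 4. Together Fth1 and Ftl1 took 0.221% to 0.264% of the FPKM sum in LSC-labelled and 0.279% to 0.411% in HSC-labelled libraries.

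The ratio of Fth1 to Ftl1 within a library was 0.920, 1.31, 1.28, 1.08 and 1.21 in LSC-labelled replicates 1 to 5 and 0.582, 0.976, 0.457, 0.476 and 0.576 in HSC-labelled replicates 1 to 5. It averaged 1.16 ± 0.161 in LSC-labelled and 0.613 ± 0.211 in HSC-labelled libraries (SD, n = 5 each). The groups overlapped only through HSC-labelled replicate 2, which was above LSC-labelled replicate 1. Protein was not measured.

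Ftl1 has near-identical copies in the mouse genome, and how reads were divided among them is not given in the sources used here. Counting annotated genes that share at least 100 words of 31 bases with its transcripts gave 7, among them Ftl1-ps1 (mean 7.13 FPKM in LSC-labelled, 16.0 in HSC-labelled), Ftl2-ps (6.997 in LSC-labelled, 21.2 in HSC-labelled), Gm15590 (2.78 in LSC-labelled, 6.83 in HSC-labelled) and Ftl1-ps2 (0.456 in LSC-labelled, 1.42 in HSC-labelled). Each of these 4 had a lower mean in the LSC-labelled libraries, as Ftl1 did. Ftl1-ps1 passed the test (log2 fold change -0.97, adjusted p = 0.0297, and 0.170 without LSC-labelled replicates 2 and 3). Ftl2-ps did not (adjusted p = 0.262), but it passed as lower without HSC-labelled replicate 2 (log2 fold change -1.68, adjusted p = 0.0315). Ftl2-ps ran from 2.88 to 16.4 FPKM in LSC-labelled and from 1.67 to 41.9 FPKM in HSC-labelled libraries. All copies lay far below Ftl1 in level. For Fth1 the same search found 1 gene, Gm6977, under 1.2 FPKM in every library, and Fth-ps2 averaged 1.40 FPKM in LSC-labelled and 1.56 in HSC-labelled libraries (adjusted p = 0.620).

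Ncoa4 encodes the receptor that delivers ferritin to lysosomes, where its iron is set free, and is at chr14:32159865-32179855, plus strand (ENSMUSG00000056234). It stood at 29.6, 22.5, 22.3, 30.1 and 25.7 FPKM in LSC-labelled replicates 1 to 5, and at 38.4, 33.0, 36.4, 42.1 and 37.6 FPKM in HSC-labelled replicates 1 to 5. The groups were close but did not overlap. The log2 fold change was -0.52 (SE 0.107, adjusted p = 0.002705), and -0.38 without LSC-labelled replicates 2 and 3. The gene with the most similar profile was Gm6768, a processed pseudogene on chromosome 12, 96.6% of whose words of 31 bases are in Ncoa4 transcripts. It averaged 8.55 ± 1.43 FPKM in LSC-labelled and 13.0 ± 1.55 in HSC-labelled libraries (SD, n = 5 each), and how reads shared by them were counted is not given in the sources used here.

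Slc40a1 encodes ferroportin, the only known exporter of iron, and is at chr1:45908068-45926523, minus strand (ENSMUSG00000025993). It stood at 28.9, 27.7, 30.6, 34.7 and 31.9 FPKM in LSC-labelled replicates 1 to 5, and at 31.6, 14.2, 21.1, 21.8 and 34.6 FPKM in HSC-labelled replicates 1 to 5. Of the HSC-labelled values 3 lay below the LSC-labelled range and 2 inside it, with replicate 2 lowest. The log2 fold change of 0.37 was not called (95% interval -0.07 to 0.81, adjusted p = 0.167). It was 0.20 without HSC-labelled replicate 2 and 0.50 without HSC-labelled replicate 5 (adjusted p = 0.0535).

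Macrophage markers were present in both groups, and HSC-labelled replicate 2 was the lowest of its group for 12 of 15, all but Csf1r, Cd14 and Marco. Spic, a factor of iron-recycling macrophages, stood at 5.32 to 8.70 FPKM in LSC-labelled libraries, 0.883 in HSC-labelled replicate 2 and 3.02 to 6.43 in the other HSC-labelled ones, and was higher in the LSC-labelled group (log2 fold change 0.98, adjusted p = 0.0256), but not without LSC-labelled replicates 2 and 3 (adjusted p = 0.0503). C1qa, of the complement proteins that tissue macrophages make, was at 50.7 to 116 FPKM in LSC-labelled libraries, 8.07 in HSC-labelled replicate 2 and 41.3 to 88.9 in the other HSC-labelled ones. Among 13 tested markers of macrophages and monocytes, 1 passed as higher, 4 (Adgre1, Cd68, Ccr2 and Cd14) passed as lower and 8 did not pass. Their summed level was 823 to 1339 FPKM in LSC-labelled and 677 to 1782 FPKM in HSC-labelled libraries, and none was listed at 0. Their part in the level of Slc40a1 was not tested.

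The ratio of Tfrc to Slc40a1, uptake over export, was 1.14, 1.94, 1.04, 1.07 and 1.26 in LSC-labelled replicates 1 to 5 and 0.438, 2.02, 0.708, 0.486 and 0.383 in HSC-labelled replicates 1 to 5. HSC-labelled replicate 2 had the highest ratio of all 10 libraries, and the other 4 HSC-labelled libraries lay below every LSC-labelled one.

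**Figure D3:**
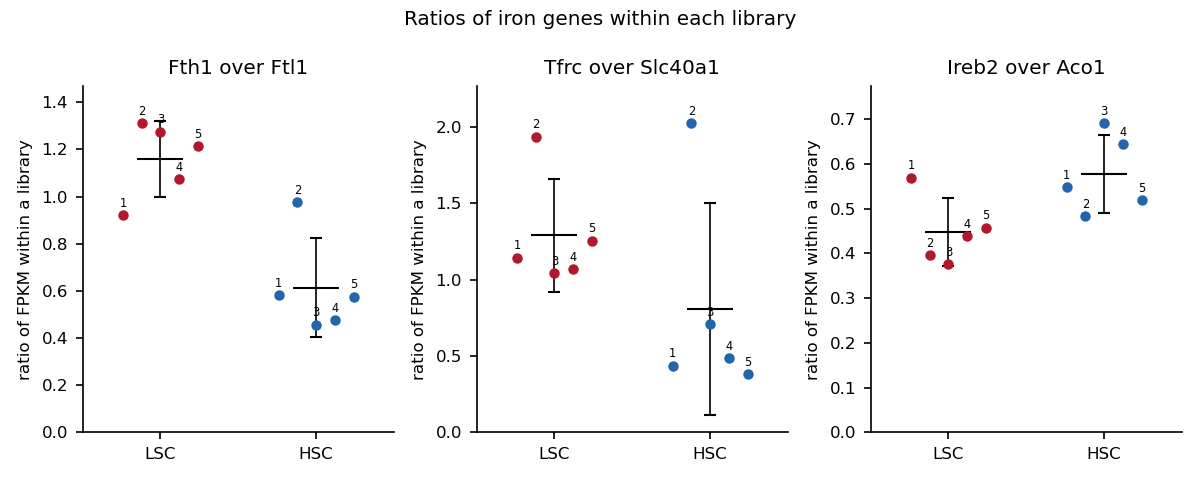
Ratio of FPKM values of gene pairs within each library (linear axis from 0), for LSC-labelled (red, left) and HSC-labelled (blue, right) libraries, with replicate numbers and the mean and SD of each group. Fth1 over Ftl1 and Tfrc over Slc40a1 are lower in 4 HSC-labelled libraries than in every LSC-labelled one, and HSC-labelled replicate 2 stands apart from those 4.

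Hmox1 encodes haem oxygenase 1, the inducible enzyme that opens the haem ring and frees its iron, and is at chr8:75093621-75100589, plus strand (ENSMUSG00000005413). It stood at 72.3, 34.8, 37.3, 57.8 and 46.2 FPKM in LSC-labelled replicates 1 to 5, and at 76.4, 98.2, 90.02, 98.3 and 94.3 FPKM in HSC-labelled replicates 1 to 5. The groups came close at LSC-labelled replicate 1 and HSC-labelled replicate 1 but did not overlap. The log2 fold change was -0.91 (SE 0.182, adjusted p = 0.002117). It was -0.65 without LSC-labelled replicates 2 and 3, whose Hmox1 was the lowest of all. Hmox2, the constitutive form, was not called (39.2 ± 3.69 FPKM in LSC-labelled and 47.5 ± 10.2 in HSC-labelled libraries, adjusted p = 0.178).

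Neither gene of an iron-regulatory protein was called. Aco1 encodes IRP1, which works as a cytosolic aconitase when it holds an iron-sulphur cluster, and is at chr4:40143081-40198338, plus strand (ENSMUSG00000028405). It stood at 10.7, 14.1, 13.8, 13.2 and 13.0 FPKM in LSC-labelled replicates 1 to 5, and at 9.55, 12.9, 9.66, 9.89 and 12.2 FPKM in HSC-labelled replicates 1 to 5. The values overlapped. Its log2 fold change of 0.24 was not called (95% interval 0.0034 to 0.49, adjusted p = 0.0976), but it passed at 0.31 without LSC-labelled replicate 1 (adjusted p = 0.0435) and at 0.30 without HSC-labelled replicate 2 (adjusted p = 0.0395). Over all alternatives its adjusted p ranged from 0.0395 to 0.421.

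Ireb2 encodes IRP2, which is degraded when iron is plentiful, and is at chr9:54863789-54912530, plus strand (ENSMUSG00000032293). Its levels were 6.10, 5.58, 5.17, 5.79 and 5.97 FPKM in LSC-labelled replicates 1 to 5 and 5.23, 6.22, 6.68, 6.37 and 6.32 FPKM in HSC-labelled replicates 1 to 5. The groups overlapped and the spread was narrow. Its log2 fold change was -0.09 (95% interval -0.28 to 0.10, adjusted p = 0.435), -0.14 without HSC-labelled replicate 1 and -0.21 under quantile normalization, not called in either. The ratio of Ireb2 to Aco1 was 0.375 to 0.569 in LSC-labelled and 0.484 to 0.691 in HSC-labelled libraries. IRP2 is controlled mainly as a protein, which these data do not show.

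**Figure D4:**
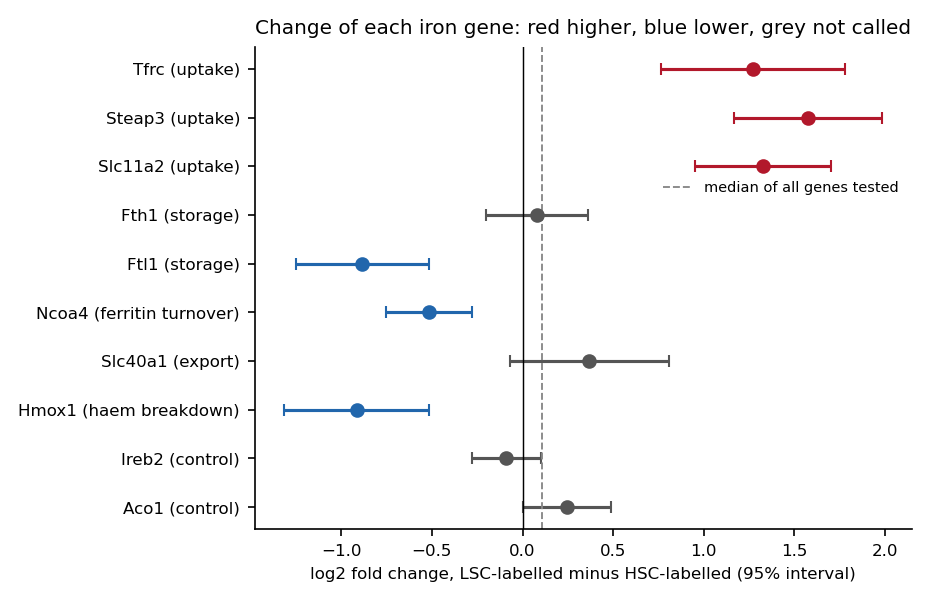
Log2 fold change of each iron gene, LSC-labelled minus HSC-labelled, with limma's 95% interval, ordered by role. Red genes were called higher, blue ones lower and grey ones not called. The dashed line is the median of all genes tested, at 0.11.

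By mean level in the LSC-labelled libraries the order was Fth1, Ftl1, Hmox1, Tfrc, Slc40a1, Ncoa4, Steap3, Slc11a2, Aco1 and Ireb2. Ranges of neighbours in that order overlapped except between Ftl1 and Hmox1 and between Aco1 and Ireb2. In the HSC-labelled libraries it was Ftl1, Fth1, Hmox1, Ncoa4, Slc40a1, Tfrc, Aco1, Steap3, Ireb2 and Slc11a2, and neighbours from Ncoa4 downward overlapped. Ftl1 ranked 92 to 108 among all genes in LSC-labelled and 32 to 69 in HSC-labelled libraries. Fth1 ranked 74 to 102 in LSC-labelled and 71 to 109 in HSC-labelled ones.

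For each called gene, the tested genes of most similar profile were found by the root mean square difference of centred log2(FPKM + 1) over the 10 libraries. For Tfrc they were St6galnac3 (0.162) and Ppm1l (0.165), for Slc11a2 Soat2 (0.0720) and Hmgn1 (0.102), and for Steap3 Vegfb (0.1204) and Mns1 (0.123). For Ftl1 they were Fam107b (0.140) and Gpx1 (0.142). Gpx1, the abundant glutathione peroxidase, averaged 1621 ± 85.5 FPKM in LSC-labelled and 2968 ± 790 in HSC-labelled libraries (SD, n = 5 each), with the same narrow and wide spreads as Ftl1. For Ncoa4 they were Gm6768 (0.0592) and Rgs19 (0.0647), and for Hmox1 Mmp19 (0.155) and Parp3 (0.179). The measure is a distance on the log2 scale and carries no test.

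Beyond the 10, a list of 55 other iron genes, all found in the table, gave 39 tested genes. In the LSC-labelled group 13 of them rose, 5 fell and 21 did not pass. That is 46.2% called, near the 41.0% over all genes. Their median log2 fold change was 0.14, beside 0.11 over all genes. Cp, among the 13, met the filter only through its LSC-labelled libraries. Without LSC-labelled replicates 2 and 3 the counts were 8 higher and 2 lower of 38 tested. The 8 calls lost were those of Lcn2, Lrp1, Flvcr1, Pcbp2, Slc25a37, Glrx5, Hif1a and Cp, the last because it no longer met the filter. Without HSC-labelled replicate 2 none of the 18 calls was lost, and the counts were 14 higher and 7 lower.

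Of 7 tested genes for other ways of iron uptake, 3 were higher and 1 lower. Tfr2, the second transferrin receptor, known as an iron sensor of liver and erythroid cells, stood at 48.2 ± 12.7 FPKM in LSC-labelled and 5.77 ± 7.70 in HSC-labelled libraries (SD, n = 5 each), and rose by a log2 fold change of 3.34 (SE 0.487, adjusted p = 0.0002929). HSC-labelled replicate 2 held 19.5 FPKM of it and the other 4 held 1.45 to 2.90. Slc39a8, a metal importer also called ZIP8, stood at 7.39 ± 1.14 FPKM in LSC-labelled and 3.28 ± 0.664 in HSC-labelled libraries (log2 fold change 0.97). Lcn2, a neutrophil protein that binds bacterial iron carriers, ran from 17.7 to 409 FPKM in LSC-labelled and from 8.81 to 149 FPKM in HSC-labelled libraries and only just passed (adjusted p = 0.049). Of 10 neutrophil markers, Lcn2 among them, 8 were higher in LSC-labelled libraries (3 without LSC-labelled replicates 2 and 3), with summed levels of 1793 to 20098 FPKM there and 671 to 3418 FPKM in HSC-labelled ones, and the part of such cells was not tested. The lower one, with overlap, was Lrp1, a receptor for haem bound to haemopexin (1.47 ± 0.450 FPKM in LSC-labelled and 3.58 ± 1.49 in HSC-labelled libraries, -0.85). Trf, transferrin itself, was not called (89.7 ± 17.8 FPKM in LSC-labelled and 57.8 ± 25.2 in HSC-labelled libraries, adjusted p = 0.0820).

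In haem traffic, 3 of 8 were higher and 1 lower. Blvrb, a biliverdin reductase abundant in red cells, stood at 172 ± 37.0 FPKM in LSC-labelled and 34.7 ± 26.1 in HSC-labelled libraries (log2 fold change 2.47), with 81.02 in HSC-labelled replicate 2. Abcg2, a transporter that can carry porphyrins and marks stem cells, stood at 9.21 ± 1.36 FPKM in LSC-labelled and 2.12 ± 1.73 in HSC-labelled libraries (1.85). Flvcr1, a haem exporter, was higher with overlap (3.19 ± 0.190 FPKM in LSC-labelled and 1.72 ± 0.926 in HSC-labelled libraries, 0.67). It stood at 3.32 FPKM in HSC-labelled replicate 2. Slc46a1, which takes up folate and, more weakly, haem, was lower at 2.78 ± 0.466 FPKM in LSC-labelled and 7.16 ± 1.47 in HSC-labelled libraries (-1.09).

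Among 7 genes for iron carriers and endosomes, 1 was higher and 1 lower. Tax1bp1, an autophagy receptor that works with Ncoa4 in ferritin turnover, stood at 69.2 ± 3.56 FPKM in LSC-labelled and 148 ± 33.3 in HSC-labelled libraries, with a log2 difference of -1.05 (SE 0.150, adjusted p = 0.0002571). HSC-labelled replicate 2 was the lowest of its group at 95.2 FPKM, still above all LSC-labelled values. Pcbp2, an iron chaperone that also binds RNA, rose by less (24.7 ± 1.21 FPKM in LSC-labelled and 19.7 ± 1.97 in HSC-labelled libraries, 0.31).

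Of 7 genes for mitochondrial iron, 3 were higher and 1 lower. Abcb10, an inner membrane transporter needed for haem synthesis, stood at 15.9 ± 1.59 FPKM in LSC-labelled and 8.43 ± 1.61 in HSC-labelled libraries (log2 fold change 0.86, adjusted p = 0.0002144). Glrx5, a glutaredoxin of cluster transfer, was higher with overlap (33.0 ± 15.1 FPKM in LSC-labelled and 13.9 ± 9.09 in HSC-labelled libraries, 1.30). Nfs1, which supplies sulphur to the clusters, stood at 45.98 ± 2.90 FPKM in LSC-labelled and 26.2 ± 4.29 in HSC-labelled libraries (0.80). The gene that fell was Slc25a37, mitoferrin 1 (8.84 ± 1.37 FPKM in LSC-labelled and 12.3 ± 1.43 in HSC-labelled libraries, -0.44). It is the importer that feeds iron to haem synthesis in red cells.

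Most of the other genes listed for iron release and its hormone hepcidin were too low to be tested. Only Cp and Mon1a of 9 were tested, and Cp, the ferroxidase ceruloplasmin, was higher (1.71 ± 0.482 FPKM in LSC-labelled and 0.421 ± 0.117 in HSC-labelled libraries, log2 fold change 0.92). Cp met the filter only through its LSC-labelled libraries, with 0.261 to 0.561 FPKM in HSC-labelled ones. A call of lower was therefore hardly possible for it. Mon1a was not low, at 6.99 ± 1.73 FPKM in LSC-labelled and 6.99 ± 1.05 in HSC-labelled libraries, and was not called (adjusted p = 0.932). Hamp, the hepcidin gene, stayed below 1 FPKM in every library.

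Among 8 genes that control iron genes, 2 were higher and 1 lower. Nfe2l2 encodes NRF2, an inducer of ferritin and Hmox1 transcription. It stood at 59.7 ± 8.31 FPKM in LSC-labelled and 35.6 ± 5.97 in HSC-labelled libraries (log2 fold change 0.73, adjusted p = 0.001109). The activity of NRF2 was not measured, and its part in the levels of Ftl1, Fth1 and Hmox1 was not tested. Bach1, a repressor of the same genes, was not called (1.95 ± 0.325 FPKM in LSC-labelled and 2.40 ± 0.660 in HSC-labelled libraries, adjusted p = 0.295). Myc, which can induce Tfrc, stood at 245 ± 21.3 FPKM in LSC-labelled and 136 ± 29.5 in HSC-labelled libraries (0.87). Hif1a, of the oxygen response, was lower (11.5 ± 0.926 FPKM in LSC-labelled and 14.5 ± 1.17 in HSC-labelled libraries, -0.31).

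Of the 8 genes listed for a known iron-responsive element, 7 were tested, with 2 higher (Tfrc and Slc11a2), 1 lower (Ftl1) and 4 not called. Alas2, which starts haem synthesis in red cells, was low and not called (2.17 ± 0.673 FPKM in LSC-labelled and 1.47 ± 0.676 in HSC-labelled libraries, adjusted p = 0.178), and so was Cdc14a, a phosphatase (6.06 ± 0.754 FPKM in LSC-labelled and 5.40 ± 1.07 in HSC-labelled libraries, adjusted p = 0.355). Epas1, the factor HIF-2α, was not tested, since it reached 1 FPKM in only 4 libraries. It stood at 0.949 to 2.87 FPKM in LSC-labelled and 0.0768 to 0.226 FPKM in HSC-labelled libraries, without overlap.

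**Figure D5:**
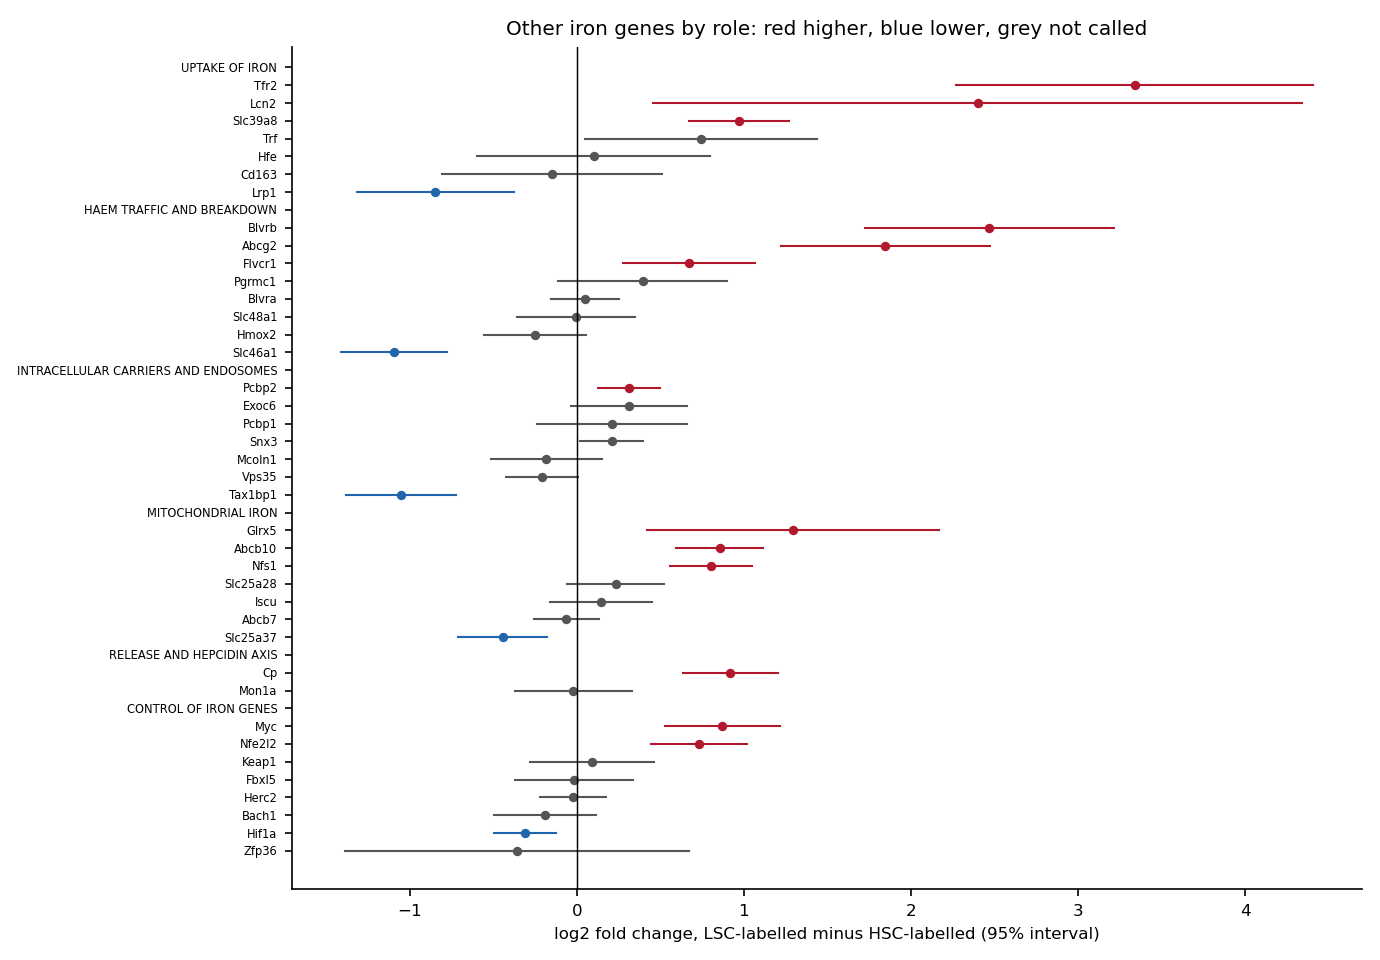
Log2 fold change, LSC-labelled minus HSC-labelled, with limma's 95% interval for the 39 tested iron genes outside the 10, grouped by role. Red genes were called higher, blue lower and grey not called. The 3 largest rises are Tfr2, Blvrb and Lcn2.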

How the data were processed

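The authors deposited 1 table of FPKM values for 51456 Ensembl gene IDs in 10 libraries, normalized for gene length and library size. The submitters' processing notes name the mm10 build, Cufflinks 2.1.1, Bowtie 0.12.9, DESeq2 and HTSeq, without saying what each did. Per the labels' protocols, little RNA was amplified by the Geo-seq method. The sources used here state neither strandedness nor the annotation release. GENCODE M21 matched 51246 IDs.

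The 13431 genes that reached 1 FPKM in 5 or more libraries were fitted with limma 3.58.1 (R 4.3.3) after a log2(FPKM + 1) transform (group as the only term, mean trend, two-sided, Benjamini-Hochberg over all genes, threshold 0.05). FPKM are no counts, so no count test was used. Depth was estimated from steps of low values, 48.5% to 76.9% of which were whole within 0.05. Tables were handled in Python 3.11.15. The fit was also run on simulated data with independent libraries and 200 genes shifted, far fewer than were called here. That run therefore says little about the calls in these data. A total of 21 alternatives was run, 1 added after seeing the data (without LSC-labelled replicates 2 and 3). Some listed genes are not reported here. Members and lists were chosen with earlier results of these data known. Genes outside the 10 were named by rule: the 3 largest called changes per role list at 1 FPKM or more, and every mRNA listed for the element. Lrp1, Flvcr1, Slc25a37, Trf, Mon1a, Hmox2, Bach1, Hamp and the markers given by library were added after their values were seen. Marker lists of megakaryocytes and platelets (9 of 9 higher, most abundant Pf4), basophils and mast cells (5 of 6 higher, most abundant Prss34), neutrophils (most abundant S100a8), erythroid cells (Car1) and macrophages and monocytes (Ly6c2) were counted the same way.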

Additional observations from a re-analysis of the deposited data

Results flagged for a closer look

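A library was picked out where its gap to the nearest other value of its group divided by the group's range exceeded Dixon's 95% critical value for 5 samples. With independent, normal values chance picks out about 1 in 20 groups. The groups examined here share libraries and some are ratios of others, so that rate is only a guide. A total of 56 was examined, with 9 picked out. Of these, 7 were HSC-labelled replicate 2 as the highest of its group: Tfrc (28.8 FPKM), Steap3 (10.6 FPKM), Tfr2 (19.5 FPKM), Lcn2 (149 FPKM), Blvrb (81.02 FPKM), the ratio of Tfrc to Slc40a1 (2.02) and the ratio of Fth1 to Ftl1 (0.976). Tfrc over Slc40a1 was highest in LSC-labelled replicate 2 (1.94). Myc was lowest in HSC-labelled replicate 3 (85.8 FPKM).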

How the results depend on the processing

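The 6 called iron genes kept direction and call under all 21 alternatives: 2 scalings, 2 pseudocounts, 2 filters, a replicate block, no mean trend, and libraries left out singly or in pairs. They gave log2 fold changes of 1.097 to 1.52 for Tfrc, 1.42 to 1.74 for Steap3, 1.14 to 1.49 for Slc11a2, -1.13 to -0.61 for Ftl1, -0.64 to -0.38 for Ncoa4 and -1.06 to -0.65 for Hmox1. Fth1, never called, changed sign without LSC-labelled replicates 2 and 3 (-0.046). Aco1 was called without LSC-labelled replicate 1 (0.31) and without HSC-labelled replicate 2 (0.30), and single left-out libraries gave 0.21 to 0.31. All genes called lower numbered 2833 with quantile normalization and 1195 with a 5 FPKM filter, and other iron genes lower numbered 3 with that filter. Without LSC-labelled replicates 2 and 3, calls fell to 3057 of all genes (1905 higher, 1152 lower) and to 8 higher and 2 lower other iron genes, with fewer libraries. The causes were not tested. Replicate numbers were not shown to pair libraries: 3 of 5 same-numbered pairs had correlated deviations over 0.1 (-0.290 to 0.225), 4 of 10 libraries were nearest their own number, and the fit with the replicate block called 5155 genes, against 5513 without it, and changed no call among the 10. Genes under 1 FPKM rest on few reads.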
